A study of Mus musculus with 12 samples.

Results

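Cytosolic ribosomal protein genes were followed across 12 RNA-seq libraries of mouse embryonic stem cells (mESCs). A gene was a member if it was protein-coding and its mouse symbol was Rpl or Rps followed by a number and at most 1 letter, or was Rplp0, Rplp1, Rplp2 or Rpsa. Symbols carrying -ps, which marks a pseudogene, were dropped. The rule found 80 genes among the 39017 of the count table, 48 of the large ribosomal subunit and 32 of the small subunit, and it used no measured value. The J1 mESC line is male and wild-type. 3B3-3l cells lack functional endogenous Dnmt3a and Dnmt3b, the de novo DNA methyltransferases, and carry a Dnmt3b transgene and a Flag-tagged Dnmt3l transgene, both under the CAG promoter, which is active in nearly all cell types. Each line was grown with LIF in serum medium (15% FCS) or in 2i medium, which contains 1 uM PD0325901, a MEK inhibitor, 3 uM CHIR99021, a Gsk3 beta inhibitor, and 1000 U/ml LIF. For serum medium the labels give 500 U/ml LIF, and the methods give the same LIF concentration as for 2i. There were 3 biological replicates in each of the 4 groups. J1 cells in serum grew on feeder cells that were depleted by plating, and 3B3-3l cells grew on gelatin, so that line and culture surface cannot be told apart in serum. The methods name feeder cells for J1 in serum culture only. Medium and growth on feeder cells therefore cannot be told apart in J1, nor in the difference of the 2i effects between the lines. 3B3-3l was a transgenic line selected with blasticidin, and 1 line of each genotype was analysed here.

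Cytosolic ribosomes translate nearly all cellular mRNA. Each consists of a small subunit, which decodes the mRNA, and a large subunit, which forms the peptide bond. The ribosomal proteins are made in near-equal amounts and assemble with ribosomal RNA in the nucleolus. Their mRNAs are among the most abundant of a growing cell, and most begin with a run of pyrimidines, the 5′ terminal oligopyrimidine (TOP) motif, through which growth signals control their translation. Ribosomal protein mRNAs have also been copied back into the genome many times, which leaves intronless processed copies that share most of their sequence with the parent gene.

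The libraries held 37050652 to 44515395 estimated reads, and a level is given below as CPM, the estimated count of a gene relative to the TMM-scaled library size. The line labels were examined first. Dnmt3b stood at 413 ± 12.2 CPM in J1 serum, 44.1 ± 3.12 CPM in J1 2i, 890.8 ± 32 CPM in 3B3-3l serum and 928.1 ± 12.7 CPM in 3B3-3l 2i (SD, n = 3). Each of the 7 embryonic stem cell markers, such as Pou5f1 and Nanog, was present in every library, with a summed level of 4388 to 6349 CPM. The 12 fibroblast markers, which would mark feeder cells, summed to 87.6 to 96.2 CPM in J1 serum, 47.1 to 48.1 CPM in J1 2i, 121 to 141 CPM in 3B3-3l serum and 32.4 to 33.7 CPM in 3B3-3l 2i. Of these, 11 were above 0 in all libraries of each serum group and 7 in those of each 2i group, and Dcn, Lum and Twist2 were listed at 0 in all 2i libraries. Pdgfrb went against this sum, at 6.31 ± 0.855 CPM with serum and 19.5 ± 0.896 CPM with 2i in J1, and at 7.39 ± 0.935 and 7.33 ± 0.107 CPM in 3B3-3l (SD, n = 3). The summed level moved with the medium in both lines and was highest in 3B3-3l serum, whose cells grew on gelatin. The markers' part in the results below was not tested. In bulk RNA, fewer cells of a type and less RNA per cell cannot be told apart.

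The start sites of the members are shown first because they define the TOP class. RefSeq promoters (GRCm38.p6) were matched by symbol for 60 of the 80 members. A gene could have more than 1 annotated start and was counted once if any of them matched. In 13 of these 60, or 21.7%, a start was a C followed by at least 4 pyrimidines, against 3.01% of all 27025 genes of the reference table counted in the same way. The 30 bases around the start are given for 6 of these 13 members, with the pyrimidine run from the first transcribed base in capitals. They were taken from the members with such a start that are described below. Other members described below, such as Rplp0, Rpl5 and Rps24, had no annotated start of this kind. The 6 windows lie at chr7:4792950-4792979 (Rpl28, plus strand), chr11:114668565-114668594 (Rpl38, plus strand), chr7:141447636-141447665 (Rplp2, plus strand), chr17:27635230-27635259 (Rps10, minus strand), chr3:90213634-90213663 (Rps27, minus strand) and chr4:86857353-86857382 (Rps6, minus strand).
Rpl28: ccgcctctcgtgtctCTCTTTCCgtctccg
Rpl38: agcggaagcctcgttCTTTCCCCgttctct
Rplp2: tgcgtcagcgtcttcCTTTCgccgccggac
Rps10: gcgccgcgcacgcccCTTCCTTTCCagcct
Rps27: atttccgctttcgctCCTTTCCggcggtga
Rps6: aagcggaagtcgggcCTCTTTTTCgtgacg

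Within the 300 bases of each promoter, 250 before and 50 after the start, CCGGAAG was present on either strand in 25 of the 60 members (41.7%) and in 9.93% of all genes. ATGGCG was present in 18 (30.0%) and in 10.2% of all genes. The TATA sequence TATAAA was present in 6 of 60 members and in 15.7% of all genes, CACGTG in 6 of 60 and in 8.09%, GGGCGG in 36 of 60 and in 38.2%, and CCAAT in 19 (31.7%) and in 41.1%. Overlap between matches of different motifs was not counted, and a match describes the sequence only.

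The members together took 5.12% to 6.44% of all reads in a library. In J1 serum their share was 6.27%, 6.44% and 6.41% in replicates 1 to 3, and in J1 2i it was 5.62%, 5.12% and 5.96%. All 3 J1 2i libraries lay below all 3 J1 serum libraries. In 3B3-3l serum the share was 6.22%, 5.81% and 5.48%, and in 3B3-3l 2i it was 6.05%, 6.18% and 5.85%. The 3B3-3l groups overlapped. The means were 6.37% ± 0.0906 in J1 serum, 5.57% ± 0.422 in J1 2i, 5.83% ± 0.369 in 3B3-3l serum and 6.03% ± 0.168 in 3B3-3l 2i (SD, n = 3). The spread was widest in J1 2i.

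**Figure D1:**
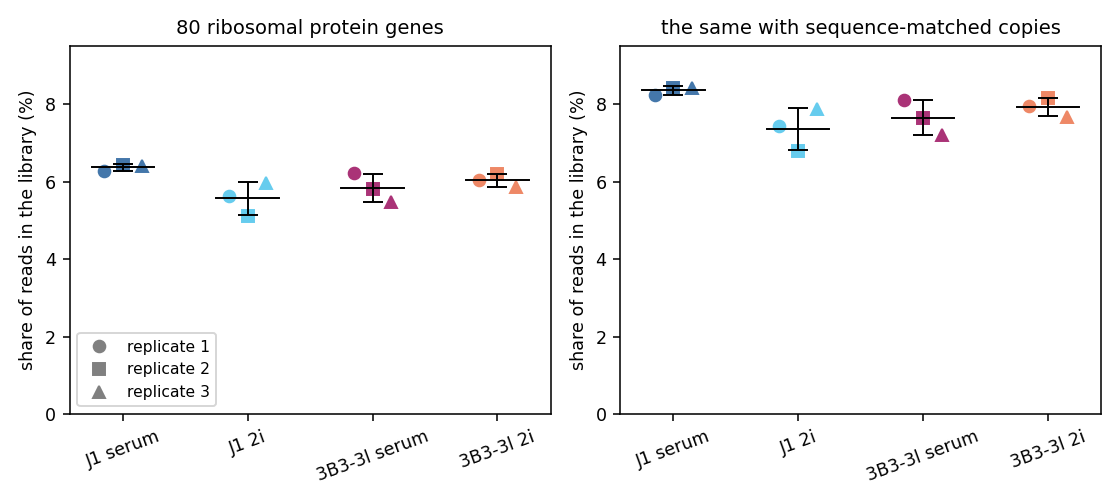
Share of each library's reads (percent, y axis) in the 80 ribosomal protein genes (left) and in these genes with their sequence-matched copies (right), by group (x axis); symbols are replicates, and bars are the mean ± SD of 3 libraries. The J1 2i libraries, at 5.12% to 5.96%, lie below the J1 serum libraries at 6.27% to 6.44%, and the 3B3-3l groups overlap.

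Many members share reads with processed copies, and this decides what a gene's own count can say. A search of annotated transcripts for matches to each member's main transcript (at least 90% identity over at least 50% of its length) found 481 copies that are genes of the count table, of which 361 are annotated as pseudogenes and 105 carry a -ps symbol. At least 1 copy was found for 63 of the 80 members. The copies took 1.98% ± 0.0195 of reads in J1 serum, 1.79% ± 0.127 in J1 2i, 1.82% ± 0.092 in 3B3-3l serum and 1.9% ± 0.0724 in 3B3-3l 2i (SD, n = 3). For 51 members under 1% of the reads of gene and copies were in the copies. For 19 members over 50% were there, and for 8 over 90%.

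Rps27, a small subunit protein with a zinc finger, was listed at 0 in all 12 libraries. Its copy Gm9846, identical over 98.8% of the transcript, held nearly all of its reads, and Rps27 summed with its copies stood at 548 ± 25.8 CPM in J1 serum, 504 ± 70.3 CPM in J1 2i, 510 ± 53.5 CPM in 3B3-3l serum and 603 ± 44.4 CPM in 3B3-3l 2i (SD, n = 3). This sum was higher in 2i in 3B3-3l (0.24 ± 0.09, edgeR adjusted p = 0.0306) and was not called in J1 (-0.12 ± 0.09, edgeR adjusted p = 0.263). Of the reads of Rpl3, a large subunit protein near the peptidyl transferase centre, 99.9% were in its copies, nearly all in Rpl3-ps1. Rps12 had 99.9% of its reads in copies, Rps13 98.8%, Rpl34 97.6%, Rps3a 96.3%, Rpl23a 94.7% and Rps6 94.5%. These counts are how the quantification shared reads between near-identical sequences, and which locus the RNA came from cannot be told apart. The main test therefore covered 79 members, without Rps27, and the counts below, and the members described whose call changed, are also given with the copies summed. Rpl24 is a further exception. Its gene row held only transcript Rpl24-201, at 1109 to 1409 reads per library, while transcript Rpl24-001 held 20824 to 28838 reads per library that are not in that row, so the row does not give the level of Rpl24.

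**Figure D2:**
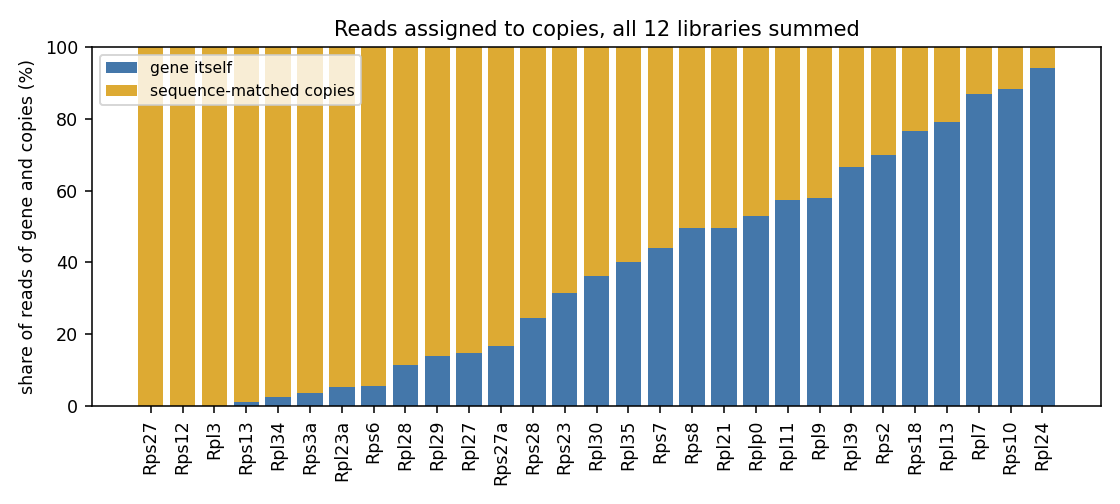
Share (percent, y axis) of the summed reads of each gene and its copies over all 12 libraries that was assigned to the gene itself (blue) or to the copies (yellow), for the 29 members (x axis) with over 5% in copies. Rps27, Rpl3 and Rps12 have 99.9% to 100% in copies, and Rpl24 has 5.72%.

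In J1 cells, ribosomal protein mRNAs were lower in 2i than in serum. Of the 79 members tested, 47 were called lower (59.5%) and 2 higher, against 32.9% lower and 33.2% higher among all 17885 genes tested. A call is an adjusted p under 0.05 in edgeR's quasi-likelihood test. The median log2 fold change of the members was -0.25 (-0.16 without J1 2i replicate 2), and that of all genes was 0.01. The change of most members was small: 44 of the 47 lower calls were under 1.5-fold, and their median was -0.29. Large and small subunit genes moved alike, with 28 of 48 and 19 of 31 called lower and medians of -0.26 and -0.21. For 44 of the 79 members (55.7%) all 3 J1 2i libraries lay below all 3 J1 serum libraries, against 34.0% of all genes. With the copies summed, 46 of 80 members were called lower and 2 higher (33.2% and 33.4% of all genes). With the trend of the other genes on transcript length removed, as described below, 66 of 79 were called lower and 2 higher, against 37.8% and 29.9% of all genes.

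The stalk and surface proteins illustrate the size of the change. Rplp0, the base of the stalk that recruits elongation factors, was at 630.6, 629.2 and 596 CPM in J1 serum against 483.9, 450.6 and 531.4 CPM in J1 2i, so that the groups did not overlap. Its log2 fold change was -0.34 ± 0.06 (SE, edgeR adjusted p = 0.000211). Its partner Rplp1 went from 1352 ± 23.8 to 1084 ± 172 CPM (-0.32 ± 0.1, edgeR adjusted p = 0.00949). Rplp2 was not called, at 813.5 ± 58.9 and 710.6 ± 74.1 CPM (-0.2 ± 0.09, edgeR adjusted p = 0.066). Rpsa, the laminin receptor homologue on the small subunit, was not called either (-0.12 ± 0.07, edgeR adjusted p = 0.139).

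Rpl5 and Rpl11, which bind 5S ribosomal RNA and can inhibit Mdm2, differed in their calls. Rpl5 was at 1861, 1812 and 1860 CPM in J1 serum against 1511, 1463 and 1653 CPM in J1 2i, without overlap (-0.26 ± 0.05, edgeR adjusted p = 0.000377). Rpl11 was at 421.9 ± 30.2 and 346.8 ± 66.8 CPM and was not called (-0.28 ± 0.14, edgeR adjusted p = 0.0795), and 42.7% of its reads were in copies. Summed with them it was lower (-0.24 ± 0.1, edgeR adjusted p = 0.0338). Rps24, a small subunit protein, fell from 1209 ± 60.9 to 942.4 ± 74.1 CPM (-0.36 ± 0.06, edgeR adjusted p = 0.000119). Rps19, needed for maturation of the small subunit, was at 858.8 ± 19.1 and 714.2 ± 108 CPM (-0.27 ± 0.1, edgeR adjusted p = 0.0285), and the X-linked Rps4x at 1633 ± 32.1 and 1437 ± 60.9 CPM (-0.18 ± 0.05, edgeR adjusted p = 0.00401).

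The lowest log2 fold changes were those of Rpl39l, Rpl28 and Rps6. Rpl28, a large subunit protein, was at 115.5, 115.9 and 100.7 CPM in J1 serum against 60.08, 56.21 and 75.39 CPM in J1 2i (-0.79 ± 0.11, edgeR adjusted p = 1.49e-05). With its copies, which held 88.5% of the reads, the change was -0.25 ± 0.09 (edgeR adjusted p = 0.0216). Rps6, the small subunit protein that S6 kinase phosphorylates, was at 105.3 ± 13.5 and 68.79 ± 13.8 CPM (-0.62 ± 0.12, edgeR adjusted p = 0.000364). Its call was lost with the copies summed (-0.15 ± 0.07, edgeR adjusted p = 0.0616). Only Rpl10l and Rpl32 were called higher. Rpl32, a large subunit protein, was at 996.8, 1032 and 1054 CPM in J1 serum against 1270, 1066 and 1391 CPM in J1 2i (0.27 ± 0.08, edgeR adjusted p = 0.00935), and its call was lost without J1 2i replicate 3 (0.18).

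In 3B3-3l cells the members were not lower in 2i. Of 79 members, 17 were called higher (21.5%) and 3 lower, against 32.7% higher and 32.7% lower among all genes, so that fewer members than genes in general were called in either direction. The median log2 fold change was 0.09, and 59 members were not called. The median was 0.05 without 3B3-3l serum replicate 3 or 3B3-3l 2i replicate 2, and 0.16 without 3B3-3l serum replicate 1. With the copies summed, 22 of 80 were called higher and 2 lower (33.1% and 32.9% of all genes). The libraries did not overlap for 16 members that were higher in 2i (20.3%) and 2 that were lower, against 34.9% and 34.7% of all genes. Among the 17 were Rps29, Rpl32, Rpl10a and Rps10. Rps29, a small subunit protein with a zinc-binding motif, was at 521.6, 438.8 and 401.8 CPM in serum and 600.3, 634.1 and 582.1 CPM in 2i, without overlap (0.42 ± 0.1, edgeR adjusted p = 0.00141). Rpl32 was at 837.7 ± 75.9 and 1070 ± 61.5 CPM (0.35 ± 0.08, edgeR adjusted p = 0.00159). Rpl10 was the only member besides Rpl39l and Rpl28 called lower (-0.14 ± 0.05, edgeR adjusted p = 0.0233), and its call was lost without replicate 1 or 2 of 3B3-3l serum or replicate 1 or 3 of 3B3-3l 2i (-0.13 to -0.11). The Rpl28 call (-0.32 ± 0.11, edgeR adjusted p = 0.023) was lost with the copies summed (-0.03), with transcript length offsets (-0.13), and without replicate 1 or 2 of 3B3-3l serum or replicate 1 or 3 of 3B3-3l 2i (-0.32 to -0.19).

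The direction in 3B3-3l depended on how transcript length was treated. Genes other than members and their copies with an effective length under 600 bases and at least 5 CPM (403 genes) had a median log2 fold change of 0.19 in this line, beside the 0.09 of the members, and 186 of them were called higher and 52 lower. When the trend of the other genes on effective length was removed from each library, 28 members were called lower and 8 higher, and the median became -0.09. The correction moved the median of all genes to the same value of -0.09, with 38.5% of them called lower and 27.6% higher. Below 0 were then 58 of the 79 members and 10070 of the 17885 genes. Of the 403 short genes, 197 lay above 0 and 206 below, with 123 called higher and 121 lower. Scaling by total reads without TMM factors gave 15 higher and 6 lower.

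The effect of 2i differed between the lines for 46 of the 79 members (58.2%), each with a more positive effect in 3B3-3l, against 16.3% of all genes in this direction. No member was called in the opposite direction by edgeR, none at an unadjusted p under 0.05, and none by the DESeq2 Wald test, against 18.3% of all genes by edgeR. The median difference of the members was 0.34 and that of all genes -0.03. The 403 short genes outside the family had a median of 0.17. With the length trend removed, 41 members were called, again with none in the opposite direction (16.6% and 20.7% of all genes), and the median was 0.22 beside -0.05 for all genes. With the copies summed, 52 of 80 members were called and none in the opposite direction (16.6% and 18.4% of all genes), and the calls of Rpl27 (0.18 ± 0.09), Rpl28 (0.22 ± 0.13) and Rps27a (0.21 ± 0.09) were lost (edgeR adjusted p = 0.138, 0.191 and 0.0803). The count rested on single libraries: leaving out J1 serum replicate 2 it was 30, and leaving out 3B3-3l 2i replicate 2 it was 25. Of the 46 members, 35 were called lower in J1 2i, 12 were called higher in 3B3-3l 2i and 3 were called in neither line.

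By their own counts, 4 members, Rpl13, Rpl23, Rpl27a and Rps27l, were called lower in J1 and higher in 3B3-3l. Their rises in 3B3-3l stand beside a median of 0.19 for the 403 other short genes in this line. With the length trend removed, 8 of the 79 members were called higher in 3B3-3l. There were 6 with the copies summed, these 4 and also Rpl34 (-0.29 ± 0.08 in J1 and 0.25 ± 0.08 in 3B3-3l, edgeR adjusted p = 0.00337 and 0.00959) and Rps3a (-0.17 ± 0.06 and 0.15 ± 0.06, edgeR adjusted p = 0.0189 and 0.0315). Rpl27a, a large subunit protein, was in J1 at 71.46, 70.08 and 67.91 CPM with serum and at 51.17, 50.95 and 56.02 CPM with 2i. In 3B3-3l it was at 51.5, 50.39 and 52.45 CPM with serum and at 58.47, 58.43 and 57.65 CPM with 2i. The J1 serum libraries stood above all others, and the difference between the effects was 0.58 ± 0.07 (edgeR adjusted p = 1.19e-05). Rpl27a was among the lowest members per length, as described below, and whether its row holds all reads of the gene was not tested. Rpl23, which like Rpl5 and Rpl11 can bind Mdm2, was at 1368 ± 51.8, 1145 ± 100, 1317 ± 61.3 and 1517 ± 63.4 CPM in the same order of groups, a difference of 0.46 ± 0.09 (edgeR adjusted p = 0.000891). Rps27l was at 173.4 ± 16, 145.8 ± 18.4, 148.2 ± 8.08 and 175.3 ± 11.5 CPM. Its effects were -0.25 ± 0.08 in J1 and 0.24 ± 0.08 in 3B3-3l (edgeR adjusted p = 0.0157 and 0.019).

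**Figure D3:**
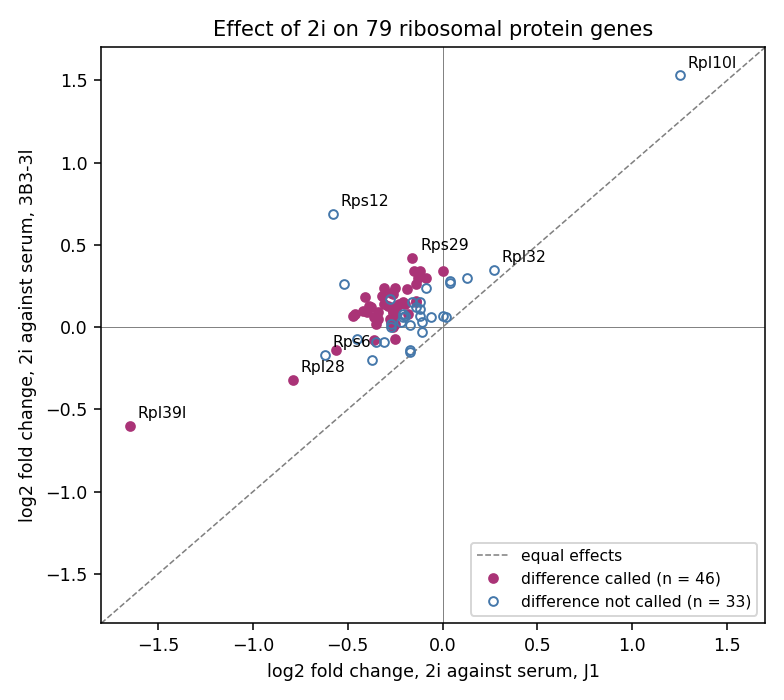
Log2 fold change of 2i against serum in J1 (x axis) and in 3B3-3l (y axis) for the 79 members tested; filled points are the 46 members whose effects differed between the lines, open points the 33 others, and the dashed line marks equal effects. All 79 points lie above the line, most of them between -0.5 and 0 on the x axis and around 0 on the y axis, with Rpl10l and Rpl39l far from the rest.

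Without the length correction, the direct comparison of the lines gave opposite directions in the 2 media. In 2i, 36 members were called higher in 3B3-3l than in J1 (45.6%) and 2 lower, against 23.0% higher and 22.9% lower among all genes, with a median of 0.18. Each of these 38 calls was under 1.5-fold. All 3B3-3l 2i libraries lay above all J1 2i libraries for 35 members (44.3%) and below them for 2, against 26.6% and 26.0% of all genes. With the copies summed, 46 of 80 were called higher and 3 lower (23.4% and 23.0% of all genes), and with the length trend removed 52 of 79 and 6 (23.3% and 24.7%). Rpl23 was at 1141, 1046 and 1247 CPM in J1 2i, against 1538, 1567 and 1445 CPM in 3B3-3l 2i, without overlap (0.41 ± 0.06, edgeR adjusted p = 7.03e-05). Rpl34, with 97.6% of its reads in copies, differed by 0.39 ± 0.11 (edgeR adjusted p = 0.00772), or 0.35 ± 0.08 with the copies (edgeR adjusted p = 0.00123). Rps27a and Rpl32 were lower in 3B3-3l 2i (-0.24 ± 0.09 and -0.22 ± 0.08, edgeR adjusted p = 0.0403 and 0.0469). The Rps27a call was lost without replicate 1 or 3 of J1 2i, replicate 2 of 3B3-3l serum or replicate 2 or 3 of 3B3-3l 2i (-0.27 to -0.18), and it was kept with the copies summed (-0.29 ± 0.06, edgeR adjusted p = 0.00134). The Rpl32 call was lost without replicate 1 or 3 of J1 2i, replicate 2 of 3B3-3l serum or replicate 1 or 3 of 3B3-3l 2i (-0.24 to -0.13). Without J1 2i replicate 1, 25 members were called, and without 3B3-3l 2i replicate 2, 22 were called.

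In serum, 18 members were called lower in 3B3-3l than in J1 (22.8%), against 17.2% of all genes, and the median was -0.14 (-0.08 without 3B3-3l serum replicate 3). None was called higher by edgeR, none at an unadjusted p under 0.05 and none by the DESeq2 Wald test, against 21.5% of all genes by edgeR. The 3B3-3l serum libraries lay below all J1 serum libraries for 26 members (32.9%) and above them for none, against 22.4% and 28.4% of all genes. With the copies summed, 18 of 80 were lower and none higher (17.3% and 21.6% of all genes). Rpl13, a large subunit protein, was at 1528, 1705 and 1743 CPM in J1 serum against 1030, 1092 and 778.6 CPM in 3B3-3l serum, without overlap (-0.78 ± 0.1, edgeR adjusted p = 2.57e-05). Rps27a, which is made as a fusion with ubiquitin, was at 275 ± 26.8 and 166.1 ± 19.7 CPM (-0.73 ± 0.09, edgeR adjusted p = 1.32e-05), and at -0.5 ± 0.06 with its copies (edgeR adjusted p = 1.42e-05). Rpl38, whose start is shown above, was at 461.1, 481.5 and 488.3 CPM in J1 serum against 351.7, 311.2 and 274.4 CPM in 3B3-3l serum (-0.61 ± 0.1, edgeR adjusted p = 0.000237). The count in serum rested on single libraries: it was 33 without 3B3-3l serum replicate 1, 28 without J1 2i replicate 2, 11 without J1 serum replicate 3, 10 without J1 serum replicate 2 and 9 without 3B3-3l serum replicate 3. Other genes were also lower in this comparison. The 403 other short genes had a median of -0.13, with 104 called lower and 26 higher. The 76 mitochondrial ribosomal proteins had a median of -0.16. With the length trend removed, 9 members were called higher and 11 lower (22.5% and 16.9% of all genes), and the median was 0.01, beside 0.04 for all genes.

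Within groups the members rose and fell together from library to library. For the 76 members with a mean of at least 5 CPM, J1 2i replicate 2 had a median log2 deviation of -0.147 from its group mean and was the lowest of the 3 libraries for 67 members. J1 2i replicate 3 had a median of 0.146 and was the highest for 73. In 3B3-3l serum, replicate 1 had a median of 0.099 and replicate 3 of -0.102, and they were the highest for 57 and the lowest for 61 members. The deviations in J1 serum and 3B3-3l 2i lay between -0.055 and 0.043. J1 2i replicate 2 was the lowest of all 12 libraries for 48 of the 79 members tested.

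The same deviations appeared in other short genes. The 403 genes outside the family with an effective length under 600 bases, which exclude copies, had medians of -0.145 in J1 2i replicate 2, 0.155 in J1 2i replicate 3, 0.095 in 3B3-3l serum replicate 1 and -0.089 in 3B3-3l serum replicate 3. The 76 mitochondrial ribosomal proteins, which belong to another ribosome, followed with -0.11, 0.128, 0.074 and -0.07. The 10724 other genes stayed between -0.019 and 0.013 in all libraries. Values after the length correction stand beside the comparisons above, and the part of this spread in them was otherwise not tested. Without J1 2i replicate 2 and 3B3-3l serum replicate 3 together, 39 members were called lower and 3 higher in J1, 16 higher and 7 lower in 3B3-3l, and 24 differed between the lines.

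**Figure D4:**
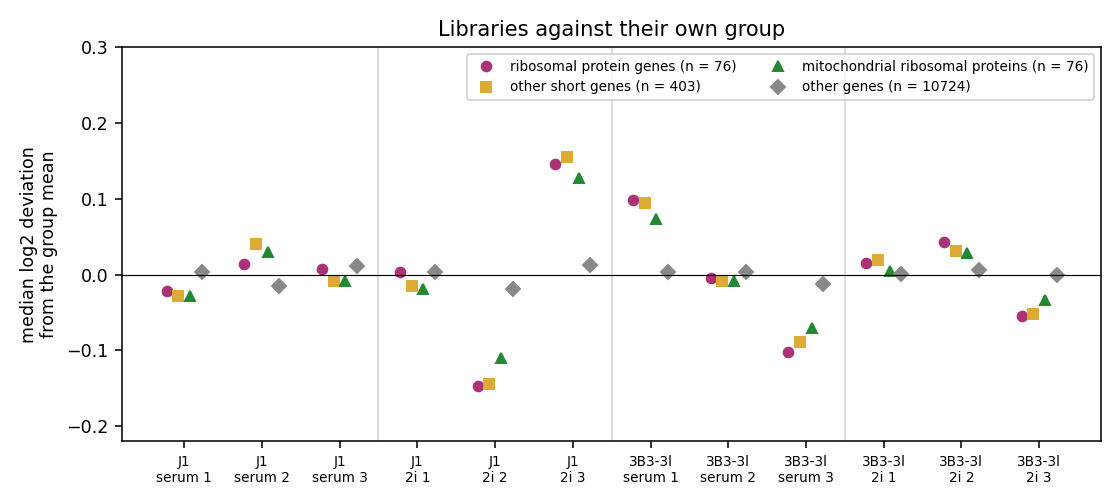
Median log2 deviation of each library from its own group mean (y axis) for 76 ribosomal protein genes, 403 other short genes, 76 mitochondrial ribosomal protein genes and 10724 other genes, by library (x axis, with the replicate number). The first 3 sets move together, from -0.147 to 0.155, and the other genes stay near 0.

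The rule also takes in paralogs that are known from restricted tissues, and 2 of them, Rpl10l and Rpl39l, had the highest and lowest log2 fold changes in both lines. Rpl10l (chr12:66283379-66284401, mm10) is an autosomal, intronless copy of the X-linked Rpl10 and is best known from the testis. It was at 23.91, 23.65 and 22.76 CPM in J1 serum against 55.39, 48.96 and 63.17 CPM in J1 2i (1.25 ± 0.09, edgeR adjusted p = 3.74e-09). In 3B3-3l it was at 26.26, 22.87 and 20.91 CPM in serum and 70.09, 65.43 and 66.83 CPM in 2i (1.53 ± 0.09, edgeR adjusted p = 2.78e-10). Both 2i groups stood above both serum groups without overlap, and the difference of the effects was not called (0.28 ± 0.12, edgeR adjusted p = 0.0937). In 2i, Rpl10l was called higher in 3B3-3l than in J1 (0.27 ± 0.08, edgeR adjusted p = 0.0142). In serum it was not called between the lines (-0.01 ± 0.09, edgeR adjusted p = 0.965). Rpl10 itself was at 1283 ± 17.8, 1138 ± 56.1, 1304 ± 42.5 and 1183 ± 54.4 CPM in J1 serum, J1 2i, 3B3-3l serum and 3B3-3l 2i. The transcripts of the pair were 84.3% identical over 664 aligned bases.

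Rpl39l (chr16:10170197-10174911, mm10), a paralog of the X-linked Rpl39, went the other way. In J1 it was at 14.81, 16.87 and 16.8 CPM with serum and at 4.83, 4.797 and 5.878 CPM with 2i. In 3B3-3l it was at 10.26, 9.127 and 9.579 CPM with serum and at 5.915, 7.113 and 6.085 CPM with 2i. J1 serum was the highest group and both 2i groups were the lowest. The log2 fold changes were -1.65 ± 0.1 in J1 and -0.6 ± 0.1 in 3B3-3l (edgeR adjusted p = 4.52e-10 and 5.85e-05), and their difference of 1.05 ± 0.14 was the highest of the members called (edgeR adjusted p = 3.57e-05). Its level was lower in 3B3-3l than in J1 in serum (-0.74 ± 0.09, edgeR adjusted p = 1.31e-05) and higher in 2i (0.3 ± 0.1, edgeR adjusted p = 0.0245). Rpl39 was at 265.5 ± 24.8, 244.6 ± 14.2, 255.5 ± 21.4 and 283.2 ± 25 CPM in the 4 groups, and neither 2i effect was called. The pair was 84.8% identical over 171 aligned bases.

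Rpl3l, known from skeletal and heart muscle, was low, at 1.52 to 2.29 CPM in the group means, and was called only between the lines in serum (-0.58 ± 0.17, edgeR adjusted p = 0.0124). The transcript reads of Rpl3l did not add up to its gene count. Rpl3, its paralog, stood at 1.65 to 2.35 CPM alone and at 2464 to 2662 CPM with its copies, and with them it was called in none of the 5 comparisons by edgeR (adjusted p = 0.202 to 0.734). Rpl22, an RNA-binding large subunit protein, was lower in J1 2i (-0.27 ± 0.07, edgeR adjusted p = 0.00325). Its paralog outside the rule, Rpl22l1, was at 109.8 ± 9.59 and 103.9 ± 7.1 CPM with serum and 2i in J1, and at 88.44 ± 9.07 and 79.81 ± 6.02 CPM in the same media in 3B3-3l.

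**Figure D5:**
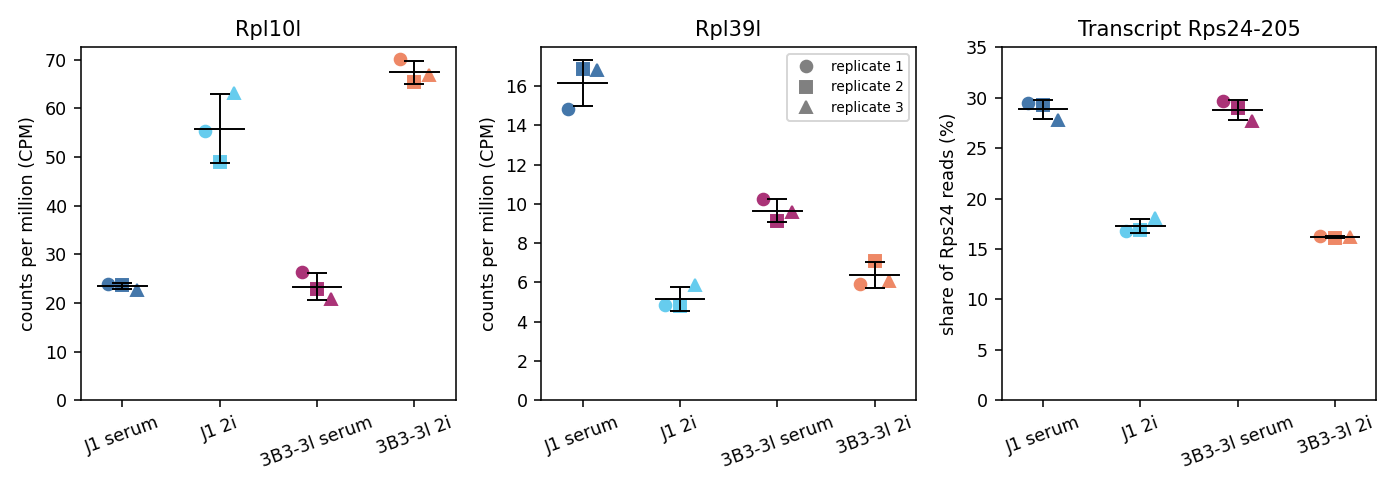
CPM (y axis) of Rpl10l (left) and Rpl39l (middle), and the share of Rps24 reads in transcript Rps24-205 (percent, right), by group (x axis); symbols are replicates, and bars are the mean ± SD of 3 libraries. The 2i libraries lie above the serum libraries for Rpl10l and below them for Rpl39l and for Rps24-205, in both lines.

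Transcripts within members were compared as shares of the gene's reads. Rps24 had reads in Rps24-203, of 468 bases, and in Rps24-205, of 837 bases. Both have 5 exons, of which the first 4 are of the same lengths, and the last is of 3 bases in Rps24-203 and 372 bases in Rps24-205. Rps24-205 held 29.5%, 29.3% and 27.8% of Rps24 reads in J1 serum and 16.8%, 16.9% and 18.1% in J1 2i. In 3B3-3l it held 29.7%, 29.0% and 27.7% in serum and 16.3%, 16.1% and 16.2% in 2i. The media did not overlap in either line. The means were 28.9% ± 0.913 and 28.8% ± 0.998 in serum and 17.2% ± 0.733 and 16.2% ± 0.102 in 2i for J1 and 3B3-3l (SD, n = 3). The share was lower in 2i in both lines, while the level of the gene fell in J1 and was at 1187 ± 60.2 and 1234 ± 61.8 CPM in 3B3-3l.

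Shares of other members varied more between replicates. Rpl22-002, with an effective length of 1880 bases against 304 for Rpl22-001, held 12.0% ± 1.29 of Rpl22 reads in J1 serum and 16.9% ± 3.02 in J1 2i, and 12.0% ± 1.07 and 14.3% ± 1.57 in 3B3-3l. The transcript with the most reads differed between groups for Rpl30, Rpl35 and Rps15a, with wide spreads between replicates. Rpl30-001, for example, held 24.4% ± 3.6 in J1 serum, 37% ± 11.6 in J1 2i, 36.8% ± 10.5 in 3B3-3l serum and 24.7% ± 7.86 in 3B3-3l 2i (SD, n = 3).

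Levels were set beside each other per length, as RPKM computed from each transcript's estimated reads and effective length, summed per gene. Only transcripts with an effective length of at least 100 bases entered. In J1 serum this put Rps15a at 295.2, against 1813 with all transcripts. This was done for 49 members with under 5% of reads in copies and with transcripts that add up to the gene count. The median per-length level in RPKM was 1961 in J1 serum, 1740 in J1 2i, 1846 in 3B3-3l serum and 1947 in 3B3-3l 2i, and the middle 50% of members lay within 1281 to 2364 over the 4 groups. Rplp1 was first or second in each group, at 4133 ± 31.6, 3421 ± 391, 3733 ± 399 and 3971 ± 23. In J1 2i, Rpl32 (3672 ± 330), Rplp1, Rpl19 (3197 ± 316) and Rpl26 (3175 ± 244) lay within each other's spread. Rpl26 was first in J1 serum (4243 ± 84.6) and stood at 2763 ± 153 and 2718 ± 66.1 in 3B3-3l. At the low end, Rpl27a (67.04 to 86.86), Rpl10l and Rpl39l (9.269 to 26.73) held the last places, with Rpl15 (88.83 to 117.3) above them. Whether the rows of Rpl27a and Rpl15 hold all reads of these genes was not tested.

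Other proteins of the cytosolic ribosome carry names that the rule does not cover. Gnb2l1, which encodes the small subunit scaffold Rack1, fell in J1 2i (-0.21 ± 0.06, edgeR adjusted p = 0.0057) and was lower in 3B3-3l than in J1 in serum (-0.49 ± 0.06, edgeR adjusted p = 9.48e-06). It was also lower in 3B3-3l than in J1 in 2i (-0.2 ± 0.06, edgeR adjusted p = 0.0125), where most members called were higher. Fau, the fusion that yields a small subunit protein, was not called in any of the 5 comparisons (edgeR adjusted p = 0.0913 to 0.89).

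Genes that act with the ribosomal proteins were counted on lists written from general knowledge, with results of these data known. In J1 2i, 30 of 36 large subunit assembly factors fell and 2 rose, with a median of -0.3, while in 3B3-3l 2i 12 fell and 6 rose. For 32 small subunit assembly factors, 18 fell and 2 rose in J1, while 10 fell and 10 rose in 3B3-3l. Among 15 small nucleolar ribonucleoprotein and nucleolar proteins, 11 fell and 2 rose in J1, while 5 fell and 5 rose in 3B3-3l. Of 15 translation factors and other genes whose mRNAs start with a TOP motif, 13 fell in J1, with a median of -0.23, while 4 fell and 3 rose in 3B3-3l. Among all genes, 32.9% fell and 33.2% rose in J1, and 32.7% fell and 32.7% rose in 3B3-3l.

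Of 13 RNA polymerase I subunits and factors, 5 fell and 2 rose in J1, while 1 fell and 7 rose in 3B3-3l, with a median of 0.22. Of 12 genes of growth signalling to the ribosome, 5 fell and 2 rose in J1, while 7 fell and 4 rose in 3B3-3l. Among the 76 mitochondrial ribosomal proteins, 15 fell and 23 rose in J1, with a median of 0.06, while 5 fell and 44 rose in 3B3-3l, with a median of 0.21. The medians of the 403 other short genes were 0.03 in J1 and 0.19 in 3B3-3l. The effect of 2i was more positive in 3B3-3l for 14 of the 36 large subunit factors, 16 of the 32 small subunit factors, 9 of the 15 nucleolar proteins, 10 of the 15 translation factors, 8 of the 13 polymerase I genes, 5 of the 12 signalling genes and 20 of the 76 mitochondrial proteins, against 16.3% of all genes. It was more negative for 1 small subunit factor, 1 polymerase I gene, 1 signalling gene and 6 mitochondrial proteins, against 18.3% of all genes. Among the 403 other short genes it was more positive for 106 and more negative for 41.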

How the data were processed

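Poly(A)-selected, stranded libraries of 12 mESC cultures were quantified by the authors with Sailfish against mm10 transcript models and summarised per gene with tximport. The deposited gene table holds estimated counts, not scaled for depth or length, and the deposited transcript tables hold estimated counts and TPM per transcript. Sequencing pools are not assigned to libraries in the labels, and a pool effect could not be examined. The release of the transcript models is not given in the sources used here.

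Rounded counts were tested with edgeR (version 4.0.16, R 4.3.3). The function filterByExpr retained 17885 genes, and TMM factors ranged from 0.97 to 1.04. All 12 libraries entered 1 quasi-likelihood fit with the 4 groups as its terms (biological coefficient of variation 6.49%), from which 5 contrasts were drawn. Calls used Benjamini-Hochberg adjustment across every gene in the fit, at an adjusted p under 0.05. Errors are SE for log2 fold changes and SD over 3 libraries for CPM and shares. A floor of 3 counts corresponds to 0.0674 to 0.081 CPM and covers counting error only. On simulated counts of all 17885 genes for the contrast of J1 2i against serum, 27 of 50 changes of 1.25-fold and 47 of 50 of 1.5-fold were called, with 5 false calls. Simulated counts were drawn independently for each gene, with the same spread for all genes and few genes changed. They therefore do not cover the shifts that members shared between libraries.

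Gene symbols were matched by Ensembl ID in the gene name table, and coordinates by symbol in RefSeq (GRCm38.p6). Copies were found with BLAST+ (version 2.17.0) among GENCODE transcripts of an older mouse build, of which no coordinate is printed. The exon lengths of Rps24 are from the same annotation. The length trend was fitted by loess (span 0.3) of each library's deviation on effective length over genes other than members. Members named are, for each contrast, up to 3 with the highest and 3 with the lowest log2 fold change among those called with at least 10 CPM in a group, and a fixed list of stalk, 5S-binding, ubiquitin-fused and paralogous members. Others, such as Rpl38, Rpl26 and Rpl23a, were named after their values were seen. Some genes that this rule selects are not reported here. The members, lists and tests were chosen with earlier results of these data known. Alternatives were DESeq2 size factors, no TMM, TMM without members, other filters on low counts, the DESeq2 Wald test (version 1.42.0), a 1.5-fold threshold, a replicate block, length offsets, summed copies, fits to 6 libraries and leaving out libraries. Copies found by sequence, the length trend and leaving out 2 libraries together were chosen after seeing the data.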

Additional observations from a re-analysis of the deposited data

Results flagged for a closer look

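The test of the difference between the lines in the effect of 2i picked out 28 of the genes named in the text (edgeR quasi-likelihood test, adjusted over all genes). Each had a more positive effect in 3B3-3l, and the differences are given on the log2 scale with their SE. Rpl39l came first at 1.05 ± 0.14 (edgeR adjusted p = 3.57e-05), followed by Rpl27a at 0.58 ± 0.07 (edgeR adjusted p = 1.19e-05). Of the large subunit, the test also picked out Rpl13 at 0.55 ± 0.15, Rpl26 at 0.54 ± 0.11, Rpl34 at 0.54 ± 0.15, Rpl15 at 0.52 ± 0.09, Rpl28 at 0.48 ± 0.16, Rpl23 at 0.46 ± 0.09, Rpl38 at 0.45 ± 0.14, Rpl35 at 0.43 ± 0.14, Rpl19 at 0.42 ± 0.12, Rpl27 at 0.42 ± 0.16, Rpl10a at 0.35 ± 0.08, Rpl22 at 0.3 ± 0.1 and Rpl5 at 0.26 ± 0.07. Of the small subunit it picked out Rps29 at 0.57 ± 0.14, Rps13 at 0.53 ± 0.16, Rps27a at 0.49 ± 0.13, Rps27l at 0.49 ± 0.12, Rps19 at 0.47 ± 0.14, Rps10 at 0.46 ± 0.14, Rps15a at 0.43 ± 0.09, Rps24 at 0.42 ± 0.09 and Rps4x at 0.26 ± 0.07. The stalk proteins stood with Rplp1 at 0.51 ± 0.14, Rplp0 at 0.39 ± 0.09 and Rplp2 at 0.34 ± 0.13. Outside the rule was Gnb2l1 at 0.3 ± 0.08. The adjusted p of these 26 genes ran from 0.000604 to 0.0495. With the copies summed, the differences of Rpl27, Rpl28 and Rps27a were no longer called. For Rpl27a and Rpl15, whether the row holds all reads of the gene was not tested. Groups of 3 are too small for a test of single outlying libraries.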

How the results depend on the processing

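Most members called had the direction reported under the alternatives run, with exceptions under the length trend and a 1.5-fold threshold. In 3B3-3l 2i against serum the length trend gave 36 calls, 28 of them lower, and a median of -0.09. In 3B3-3l against J1 in serum it gave 9 higher and 11 lower and a median of 0.01. The median of the difference between lines was then 0.22, and 58 members were called between the lines in 2i. Leaving out J1 2i replicate 2 and 3B3-3l serum replicate 3 together gave 24 calls and a median of 0.22 for the difference. A 1.5-fold threshold left 4 members in J1, 2 in 3B3-3l (1 in each direction), 0 between the lines in 2i by edgeR (44 at an unadjusted p under 0.05, 41 by the DESeq2 Wald test, neither with a fold threshold), 6 between them in serum, and 1 for the difference. In serum, no filter on low counts gave 36 calls and a fit to the 6 libraries compared gave 33. By TPM, transcript Rps24-205 held 15.4% in J1 serum, 8.46% in J1 2i, 15.2% in 3B3-3l serum and 8.06% in 3B3-3l 2i, in place of shares of reads. Calls without single libraries ranged from 37 to 63 in J1, 14 to 30 in 3B3-3l, 22 to 50 between lines in 2i, 9 to 33 in serum, and 25 to 63 for the difference, and the medians from -0.32 to -0.16, 0.05 to 0.16, 0.12 to 0.24, -0.19 to -0.08 and 0.27 to 0.42. Differences in the share of reads ranged from -1.0 to -0.582, 0.017 to 0.385, 0.239 to 0.657 and -0.728 to -0.36 percentage points. The causes of these shifts were not tested.

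Same-numbered replicates showed no shared deviation (r of -0.118 to 0.062 over genes), and differently numbered ones had r of -0.176 to 0.174. The labels do not say whether the numbers pair the samples, and these correlations cannot decide it. With the replicate block, 48, 20, 33, 15 and 37 members were called in the 5 comparisons, and the block changed the call of Rps27a and Rpl32 between the lines in 2i. Depth did not limit most members, but in the group means Rpl3 and Rpl3l stood at 1.52 to 2.35 CPM and Rps12 at 0.719 to 1.45 CPM, and Rps27 was at 0.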
